A study of Mus musculus with 60 samples.

Results

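The genes described here are the machinery that carries a cell out of G1: the D cyclins Ccnd1, Ccnd2 and Ccnd3, the E cyclins Ccne1 and Ccne2, the kinases Cdk4 and Cdk6, the inhibitors Cdkn1b and Cdkn2c, and the retinoblastoma gene Rb1. They were chosen by name, as every probe set of the array that names 1 of these genes alone. All 10 genes were found, with 27 probe sets among the 45101 of the array, and 25 of the 27 passed the filter on dim signal. In all, 18193 genes are named by a probe set of their own, and 12635 of them passed the filter.

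D cyclins are made in response to growth signals, bind CDK4 or CDK6, and start the phosphorylation of the RB protein, which otherwise holds E2F transcription factors inactive. E cyclins with CDK2 complete that phosphorylation and open S phase, while p27 (Cdkn1b) restrains CDK2 complexes and p18 (Cdkn2c) binds CDK4 and CDK6 directly. Myc, the oncogene of this model, is known to act on several of these steps, and B cells of different stages are known to rely on different D cyclins.

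The arrays, Affymetrix Mouse430_2 hybridised with biotin-labelled cRNA from snap-frozen tissue, hold 3 groups. There were 25 early lymphomas of Em-myc transgenic mice with an age of onset of 32 to 76 days (median 65) and 25 late lymphomas of the same genotype with an onset at 253 to 649 days (median 398). The Em-myc transgene places Myc under the enhancer of the immunoglobulin heavy chain, so it is active in the B lineage, and tumours arise after further changes that differ from mouse to mouse. The 10 normal tissues came from Wildtype mice: 6 lymph nodes sampled at 38 to 73 days, 3 lymph nodes sampled at 387 to 438 days and 1 spleen sampled at 304 days. The series sets early against late onset. Each array is labelled as 1 tumour or tissue, with no word on shared litters or days of processing, so p-values reflect only how these samples vary.

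Values are intensities, the brightness of a probe set on the array's linear scale, and changes are differences of log2(intensity + 15.7), here called log2 changes. A change was called where limma's p-value, adjusted by the Benjamini-Hochberg method over all 27094 probe sets that passed the filter, lay under 0.05. Each gene is given by its brightest probe set, and levels of different probe sets are not compared. A value after ± is a standard error. The median intensity of an array lay between 124 and 206 in early lymphomas, between 122 and 184 in late lymphomas and between 183 and 198 in normal tissue. Because each tumour was measured in bulk, fewer cells of a type and less RNA per cell cannot be told apart.

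Some late lymphomas stood apart in markers of cell type. The mean log2 level of 9 plasma cell markers lay between 8.98 and 10.2 in early lymphomas and between 10.5 and 12.2 in normal tissue. In late lymphomas it lay between 8.73 and 13.4, and the late lymphomas numbered 120, 125, 129, 137 and 138 in their titles, at 12.9 to 13.4, lay above every other array of the series. Late lymphoma 130 had the lowest mean of 7 B lineage markers, 8.29 against 11.3 to 12.2 in normal tissue, and the highest mean of 7 T cell markers, 12.1 against 10.8 to 11.9. Early lymphoma 6 had the lowest B lineage mean of its group, 9.24. No marker was listed at 0 on any array. Leaving out the 5 late lymphomas highest in plasma cell markers changed several results, and values without them are given beside those. The part these cells have in a result was not tested. The deviations of late lymphomas 121 and 123 from their group mean correlated at 0.77 over the probe sets that passed the filter, which their labels do not account for.

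Against normal tissue, early lymphomas had more of 6 of the 10 genes (Ccnd1, Ccne1, Ccne2, Cdk4, Cdk6 and Cdkn2c) and less of 3 (Ccnd2, Cdkn1b and Rb1). Of all probe sets tested, 28.4% were called higher and 39.8% lower in this comparison. Late lymphomas had more of 4 (Ccne1, Ccne2, Cdk4 and Cdkn2c) and less of 3 (Ccnd2, Ccnd3 and Cdkn1b), where 22.4% of all probe sets were called higher and 32.4% lower. Both comparisons use the same 10 normal arrays. Between the lymphoma groups, Ccnd1 and Cdk4 were lower in late than in early lymphomas and none of the 10 was called higher, against 12.4% of all probe sets called lower and 9.58% called higher. The median change over all probe sets was 0.001 for late minus early lymphoma, -0.119 for early lymphoma minus normal tissue and -0.089 for late lymphoma minus normal tissue. The balance of all calls against normal tissue depended on the scaling: 41.6% of the calls in early lymphomas were rises on the deposited scale, 54.8% after quantile normalization and 65.1% after centring each array on its median, and for late lymphomas the shares were 40.9%, 55.3% and 65.8%. In late minus early lymphoma they were 43.6%, 39% and 31.5%.

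**Figure D1:**
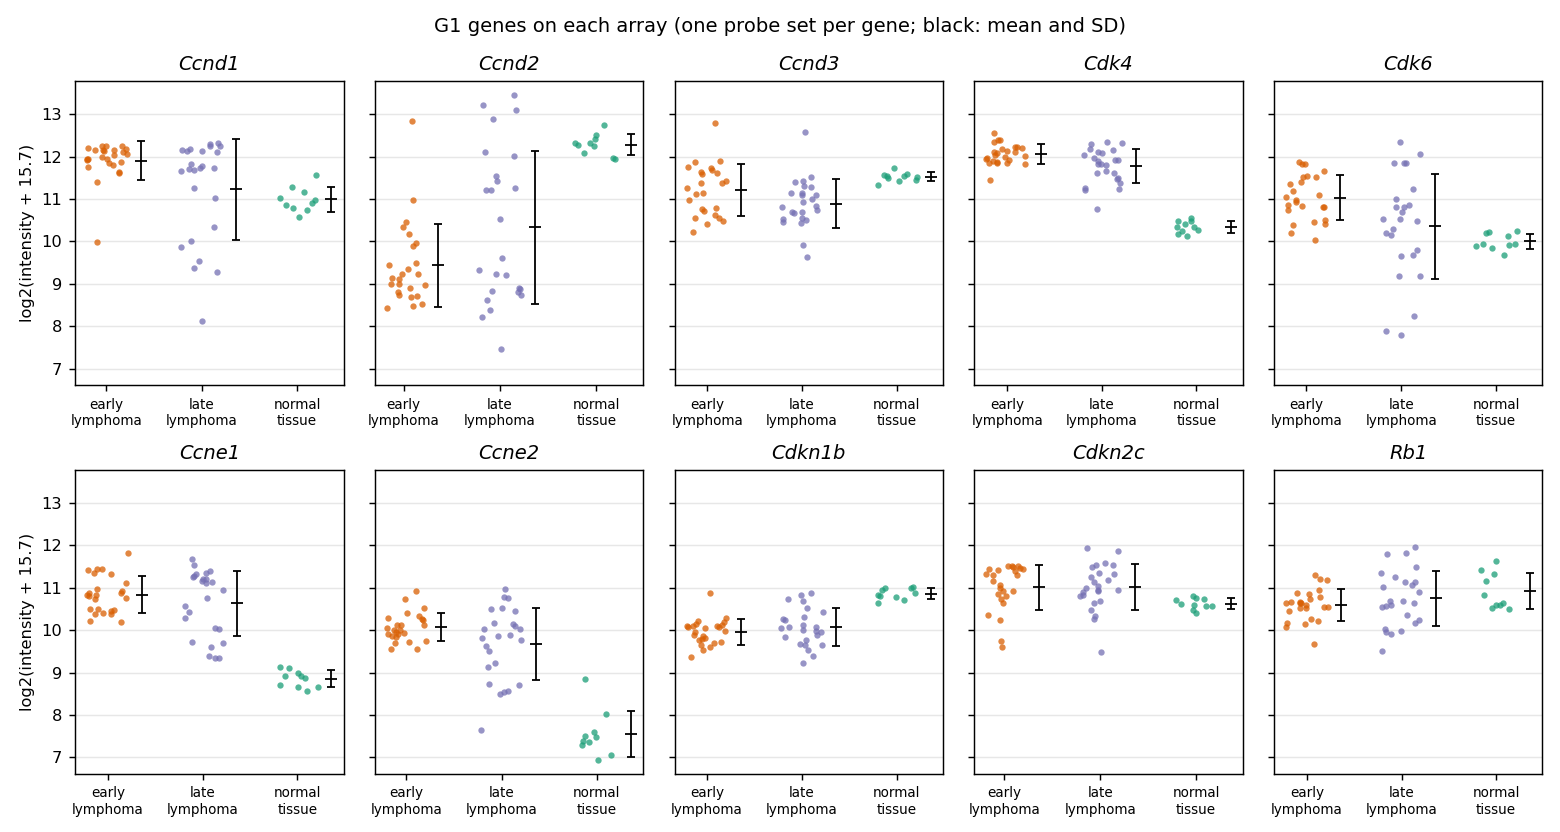
Each point is 1 array, with the log2(intensity + 15.7) of the brightest probe set of each gene on the vertical axis and the group on the horizontal axis (25 early lymphomas, 25 late lymphomas, 10 normal tissues). Black bars give the mean and SD. Cdk4 and Ccne1 in all 50 lymphomas lie above all normal tissues, Ccnd2 falls to 332 in the lowest early and 160 in the lowest late lymphoma by intensity, and the late lymphomas scatter widely in Ccnd1, Ccnd2 and Cdk6.

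Cyclin D1, encoded by Ccnd1 (chr7:144929931-144939831 in GRCm38.p6, probe set 1417420_at), is a D cyclin that many tumours raise. Its intensity was 1006 at the lowest, 4026 at the median and 4887 at the highest in early lymphomas, and 1499.7, 1964 and 3020 (number 4) in normal tissue. In late lymphomas it ran from 263 over a median of 3382 to 5073. In early lymphomas 23 of 25 lay above every normal tissue and 1, number 24, lay below them all. Late lymphomas were split, with 16 of 25 above every normal tissue and 7 below every one. Ccnd1 was higher in early lymphomas than in normal tissue by 0.91 ± 0.15 (1.88-fold, adjusted p = 1.1e-06), and all 3 of its probe sets were called. The late lymphomas differed from normal tissue by 0.24 ± 0.37 (adjusted p = 0.61, 95% interval -0.51 to 0.98), and by 0.59 (adjusted p = 0.12) without the 5 late lymphomas highest in plasma cell markers. Late minus early lymphoma was -0.67 ± 0.25 (adjusted p = 0.042), a call that the other 2 probe sets just missed (-0.60, adjusted p = 0.056, and -0.75, adjusted p = 0.052). Without the 5 late lymphomas highest in plasma cell markers the change was -0.32 (adjusted p = 0.39), without the 5 lowest in B lineage markers it was -0.60 (adjusted p = 0.097), and with both RNA quality ratios as covariates it was -0.33 (adjusted p = 0.43).

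Ccnd2 (chr6:127125162-127152188, probe set 1416122_at) encodes cyclin D2, the D cyclin that mature B cells induce through their antigen receptor. In normal tissue its intensity lay between 3920.2 and 6826 with a median of 5018. Early lymphomas ranged from 332 over a median of 552 to 7369, and late lymphomas from 160 over 771 to 11230.3. Thus 24 of 25 early and 19 of 25 late lymphomas lay below every normal tissue, while 1 early lymphoma, number 6, and 4 late lymphomas, numbers 120, 129, 137 and 138, lay above every one. Ccnd2 was lower in early lymphomas by -2.85 ± 0.30 (7.19-fold, adjusted p = 7.4e-11) and in late lymphomas by -1.95 ± 0.55 (3.88-fold, adjusted p = 0.0027). All 7 probe sets of Ccnd2 were lower in both comparisons, by -2.14 to -3.29 in early and -1.34 to -2.41 in late lymphomas. The dimmest, 1416123_at, lay above its array's median on 11 arrays, where the filter asked for 10. Bright normal arrays count towards that filter, and their part in its passing was not tested, so this probe set adds little. On the brightest probe set, the late change was -2.08 (adjusted p = 0.058) against the 4 old normal tissues alone. Without the 5 late lymphomas highest in plasma cell markers it was -2.56 (adjusted p = 4.6e-06). T cell markers fell with Ccnd2, 7 of 7 in either lymphoma group. Their summed intensity was 13685 to 30298 in normal tissue, 302 to 3657 in early and 503 to 40760.0 (median 2775) in late lymphomas. Other markers were also lower in early lymphomas: 7 of 9 for plasma cells, 6 of 7 for macrophages and 7 of 8 for stroma and endothelium, with 0 higher. In late lymphomas these were 1 of 9, 3 of 7 and 5 of 8, with 1 macrophage marker higher. The part of these cell types in the Ccnd2 change was not tested. Late lymphomas had more Ccnd2 than early ones by 0.89 ± 0.39, which missed the threshold (adjusted p = 0.093). Without the 5 late lymphomas highest in plasma cell markers the difference was 0.28 (adjusted p = 0.65). It passed at 1.03 (adjusted p = 0.045) without early lymphomas 6 and 24, a choice made after seeing the data. Number 6 held the highest Ccnd2 of the early group. With all lymphomas, 1 of the 7 probe sets, 1448229_s_at, was called at 1.16 ± 0.40 (adjusted p = 0.03).

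The third D cyclin, Ccnd3 (chr17:47505051-47599689, probe set 1415907_at), is needed in pre-B and germinal centre B cells. Normal tissues lay close together, between 2573 and 3383 with a median of 2950.5. Early lymphomas ran from 1181 over 2432 to 7056 (number 24), and late lymphomas from 773 over 1807 to 6084 (number 136). Lymphomas lay on both sides of normal tissue: 5 early lymphomas were above and 13 below every normal tissue, and 1 late lymphoma was above and 21 below. The late change of -0.63 ± 0.18 was called (1.54-fold lower, adjusted p = 0.0031), with all 3 probe sets lower. It was -0.35 (adjusted p = 0.13) after centring and -0.64 (adjusted p = 0.078) against old normal tissue alone. The early change of -0.31 ± 0.18 was not called (adjusted p = 0.14). The other 2 probe sets were called lower in early lymphomas, 1444323_at by -0.46 and 1438805_at by -2.34. Of these 2, 1 correlated with the brightest probe set at -0.31 and 1 at 0.72 over the 50 lymphomas, so the 3 did not all measure the same thing. Without early lymphomas 6 and 24, a choice made after seeing the data, the early change was -0.39 (adjusted p = 0.028). Number 24 held the highest Ccnd3 of the early group. After quantile normalization the early change was -0.50 (adjusted p = 0.014), and after centring its sign turned, to 0.03. Late minus early lymphoma was -0.32 ± 0.16 (adjusted p = 0.15), and -0.22 (adjusted p = 0.41) without the 5 late lymphomas highest in plasma cell markers.

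Cdk4 (chr10:127063535-127067288, probe set 1422441_x_at) encodes a kinase partner of the D cyclins. Its intensity was 2796 at the lowest, 4218 at the median and 5971 at the highest in early lymphomas, 1735, 3630.1 and 5199 in late lymphomas, and 1099.6, 1273 and 1489.7 in normal tissue. All 50 lymphomas lay above all 10 normal tissues. The change was 1.72 ± 0.08 in early lymphomas (3.29-fold, adjusted p = 7.1e-21) and 1.43 ± 0.13 in late lymphomas (2.7-fold, adjusted p = 2.5e-11), with all 3 probe sets higher in both. Late lymphomas had less Cdk4 than early ones by -0.28 ± 0.09 (1.22-fold, adjusted p = 0.023), and the lowest late lymphoma, number 137, also had the lowest mean of the 7 mitosis markers, 9.44 against 11.7 to 12.4 in early lymphomas. Of the other 2 probe sets 1 was called lower at -0.38 (adjusted p = 0.014) and 1 was not, at -0.17 (adjusted p = 0.16). Without the 5 late lymphomas highest in plasma cell markers the change was -0.16 (adjusted p = 0.22), and with the RNA quality ratios as covariates it was -0.18 (adjusted p = 0.22).

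Cdk4 is a textbook target of Myc, which with its partner Max binds the sequence CACGTG. The 250 bases before an annotated transcript start (RefSeq, GRCm38.p6, plus strand) are shown with that motif in capitals, beside the same for Cdk6, since these are the only members with a window that holds it.

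Cdk4, chr10:127063285-127063534: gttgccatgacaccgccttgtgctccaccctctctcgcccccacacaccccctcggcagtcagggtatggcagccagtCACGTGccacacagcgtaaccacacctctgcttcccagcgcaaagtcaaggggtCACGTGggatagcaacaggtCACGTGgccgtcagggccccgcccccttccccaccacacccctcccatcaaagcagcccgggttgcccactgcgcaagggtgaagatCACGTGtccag

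Cdk6, chr5:3343643-3343892: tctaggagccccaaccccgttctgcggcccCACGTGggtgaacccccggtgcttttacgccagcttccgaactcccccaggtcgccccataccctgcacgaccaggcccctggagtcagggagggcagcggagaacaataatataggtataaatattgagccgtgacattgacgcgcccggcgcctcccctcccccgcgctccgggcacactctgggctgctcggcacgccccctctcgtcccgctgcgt

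CACGTG reads the same on both strands, so 1 search covers both, and no match overlapped another. Where RefSeq has several transcripts, a window belongs to 1 transcript's start: that of Cdk6 ends at a start inside the span given for the gene, not at the outermost one. The Cdk4 window holds it 4 times, at 172, 118, 98 and 11 bases before the start, and the Cdk6 window once, at 220 bases. Of 32851 windows of the same length in the RefSeq table, 6.02% held the motif at least once and 7 (0.021%) at least 4 times. Of the 10 genes 6 had a window, and those of Ccnd3, Ccne1, Cdkn1b and Cdkn2c do not hold these letters. Ccnd1, Ccnd2, Ccne2 and Rb1 were not searched. A match of letters is a description and no measurement of binding.

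Cdk6 (chr5:3341004-3531008, probe set 1435338_at) encodes the other kinase partner of the D cyclins. Early lymphomas ran from 1038 over 2008 to 3732, late lymphomas from 206 over 1454 to 5229, and normal tissues from 802 over 967 to 1193. In early lymphomas 23 of 25 lay above every normal tissue and none below. In late lymphomas 15 lay above and 6 below, among them numbers 120, 125 and 138 at 206, 288 and 221, whereas the highest value belonged to number 136. The early change was 1.03 ± 0.16 (2.05-fold, adjusted p = 7.3e-07), with 3 of 3 probe sets higher. Over all 25 late lymphomas the change was 0.36 ± 0.38 (adjusted p = 0.44), and without the 5 highest in plasma cell markers it was 0.78 (adjusted p = 0.014). Late minus early lymphoma was -0.67 ± 0.26 and lay at the edge of the threshold (adjusted p = 0.053). Without the 5 late lymphomas highest in plasma cell markers it was -0.25 (adjusted p = 0.48), and without the 5 lowest in B lineage markers -0.53 (adjusted p = 0.12). Over all late lymphomas it passed on the second probe set (-0.64, adjusted p = 0.043), in 1 fit over all 60 samples (-0.67, adjusted p = 0.031), and after centring (-0.73, adjusted p = 0.0499). It also passed without late lymphoma 123 (-0.74, adjusted p = 0.032), a choice made after seeing the data. The Cdk6 of number 123 stood at 3672.

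The E cyclins were higher in lymphomas of both groups. Ccne1 (chr7:38097984-38107490, probe set 1441910_x_at) encodes cyclin E1, the activator of CDK2 at the entry to S phase. It ran from 1162 over 1801 to 3605 in early lymphomas, from 632 over 1943 to 3273 in late lymphomas, and from 365 over 458 to 543 in normal tissue, so on this probe set no lymphoma overlapped the normal range. The changes were 1.98 ± 0.14 in early (3.96-fold, adjusted p = 1.4e-15) and 1.78 ± 0.24 in late lymphomas (3.42-fold, adjusted p = 9.9e-08). The suffix of this probe set marks probes that can match other transcripts, and the second probe set, 1416492_at, followed it at a correlation of 0.91 over the 50 lymphomas and was higher by 1.61 and 1.37. On that probe set all 25 early but only 20 of 25 late lymphomas lay above every normal tissue, the lowest late value being 249.6 (number 136) and the highest normal value 355.

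Ccne2 (chr4:11190433-11204779, probe set 1422535_at) encodes cyclin E2, which has a closely related role. Its intensities were 732, 1016 and 1914 at the lowest, median and highest in early lymphomas, 184, 920.4 and 2004 in late lymphomas, and 107, 157 and 445 in normal tissue. The highest normal value was the spleen's, and the highest lymph node stood at 243. All 25 early and 19 of 25 late lymphomas lay above every normal tissue. The changes were 2.53 ± 0.15 (5.76-fold, adjusted p = 5.7e-18) and 2.13 ± 0.28 (4.39-fold, adjusted p = 5.5e-08). Neither E cyclin was called between the lymphoma groups: late minus early lymphoma was -0.21 ± 0.17 for Ccne1 (adjusted p = 0.4, 95% interval -0.55 to 0.14) and -0.39 ± 0.18 for Ccne2 (adjusted p = 0.1, interval -0.75 to -0.04 before adjustment). These were -0.08 (adjusted p = 0.81) and -0.23 (adjusted p = 0.36) without the 5 late lymphomas highest in plasma cell markers. Mitosis markers, 7 of 7, moved the same way as the E cyclins against normal tissue, with a summed intensity of 28294 to 48646 in early, 6492 to 43613 in late lymphomas and 4181 to 13066 in normal tissue. Their part in the rise of the E cyclins was not tested.

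Of the inhibitors, Cdkn1b (chr6:134920401-134925525, probe set 1434045_at), the gene of p27, fell in lymphomas. Its intensity lay between 646 and 1874 in early lymphomas (median 999), between 579 and 1853 in late lymphomas (median 1052) and between 1574 and 2054 in normal tissue (median 1841). Below every normal tissue lay 24 of 25 early and 21 of 25 late lymphomas, and none lay above. The changes were -0.90 ± 0.10 (1.86-fold, adjusted p = 2.8e-10) and -0.79 ± 0.14 (1.73-fold, adjusted p = 1.5e-05). Late and early lymphomas differed by 0.11 ± 0.11 (adjusted p = 0.48, interval -0.10 to 0.33). A second probe set, 1419497_at, did not pass the filter.

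Cdkn2c (chr4:109660876-109666756, probe set 1416868_at), the gene of p18, differed little. Early lymphomas ran from 764 over 2263 to 2895, late lymphomas from 702 over 2011 to 3937, and normal tissues from 1342 over 1541 to 1781. Above every normal tissue lay 19 early and 18 late lymphomas, and 4 early and 3 late lymphomas lay below. The changes of 0.38 ± 0.17 in early (adjusted p = 0.04) and 0.40 ± 0.17 in late lymphomas (adjusted p = 0.047) passed narrowly, and both missed the threshold without the filter (adjusted p = 0.052 and 0.061) and after quantile normalization (0.076 and 0.070). The late change was 0.54 (adjusted p = 0.001) without the 5 late lymphomas highest in plasma cell markers and 0.38 (adjusted p = 0.061) without the 5 lowest in B lineage markers. Between late and early lymphomas the difference was 0.01 ± 0.15 (adjusted p = 0.96, interval -0.28 to 0.31).

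Rb1 (chr14:73192858-73325951, probe set 1417850_at) encodes the RB protein that CDK4 and CDK6 phosphorylate. In young lymph nodes its intensity lay between 1429.9 and 1805 (median 1532), and in the 4 old normal tissues it was 2264, 2556, 2723 and, in the spleen, 3134. The old and young tissues did not overlap. Old minus young normal tissue was 0.77 ± 0.10 (1.7-fold, adjusted p = 0.0027), and leaving out each old tissue in turn gave 0.69 to 0.84. On the brightest probe sets, Rb1 was the only one of the 10 genes called in that comparison, where 0.812% of all probe sets were called higher. Other probe sets can differ from this. The third of Ccnd3, 1438805_at, lay at 664 to 894 in old and at 1111 to 1496 in young normal tissue, without overlap. With both RNA quality ratios as covariates the change was 1.03 and was no longer called (adjusted p = 0.18). Plasma cell markers, 8 of 9, were also higher in the old tissues, whose marker means were 11.6 to 12.2 against 10.5 to 10.8 in the young ones, and 4 of 8 stroma and endothelium markers were lower. The part of these cells was not tested.

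In lymphomas Rb1 ran from 806 over 1573 to 2507 in early and from 712 over 1624 to 3956 in late tumours, with normal tissues between 1429.9 and 3134 (median 1697). The early change of -0.33 ± 0.14 was called (adjusted p = 0.037), but it rests on the old normal tissues: it was -0.02 (adjusted p = 0.92) against young lymph nodes alone and -0.25 (adjusted p = 0.11) without the spleen, and centring turned it to 0.01. The late change was -0.17 ± 0.22 (adjusted p = 0.53), and late minus early lymphoma was 0.16 ± 0.15 (adjusted p = 0.46). The highest late values, 3956, 3628 and 3528, belonged to numbers 141, 137 and 138, the oldest at onset with 649, 567 and 569 days. The slope of Rb1 on log2 age of onset was 0.89 ± 0.31 per doubling of age within late lymphomas (adjusted p = 0.14; 0.72, adjusted p = 0.51, without the 5 highest in plasma cell markers) and 0.60 ± 0.22 within early lymphomas (adjusted p = 0.085).

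None of the 10 genes had a called slope in either group, where 0.0111% of all probe sets were called in late and 8.98% in early lymphomas. After centring, 5 of the 10 had a called rising slope within early lymphomas, Rb1 at 1.03 (adjusted p = 0.0027) among them, but under that scaling 27% of all probe sets had one. The change from early to late lymphoma was also set against the change from young to old normal tissue, and the 2 changes differed by a called amount for none of the 10, against 0.0258% of all probe sets. For Rb1 that difference was -0.61 ± 0.34 (adjusted p = 0.74).

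**Figure D2:**
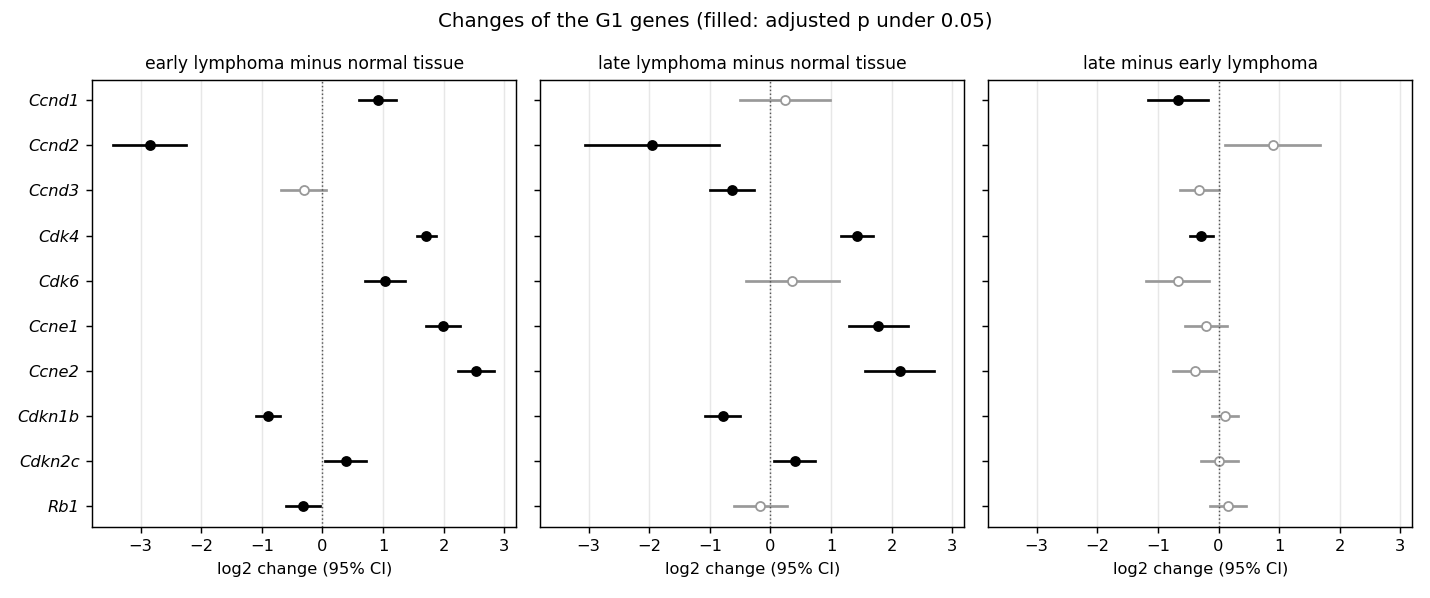
Log2 change of each gene on the horizontal axis, with its 95% confidence interval, for early lymphoma minus normal tissue, late lymphoma minus normal tissue and late minus early lymphoma. Filled points passed an adjusted p of 0.05. Ccnd2 at -2.85 and -1.95 lies farthest to the left against normal tissue, and in the panel of late minus early lymphoma Ccnd1 (-0.67) and Cdk4 (-0.28) are filled.

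Single late lymphomas differed more from each other than early ones in 4 of the 10 genes. This was tested as the absolute deviation of each log2 value from the median of its own group, where 10.1% of all probe sets scattered more in late lymphomas. The mean deviation was larger by 0.60 ± 0.18 for Ccnd1 (adjusted p = 0.024), by 0.93 ± 0.28 for Ccnd2 (adjusted p = 0.025), by 0.40 ± 0.12 for Ccne2 (adjusted p = 0.02) and by 0.50 ± 0.17 for Cdk6 (adjusted p = 0.046). None of the 10 scattered less in late lymphomas. For Ccnd3 the difference was -0.08 ± 0.11 (adjusted p = 0.65). Without the 5 late lymphomas highest in plasma cell markers the 4 differences were 0.33, 0.47, 0.25 and 0.25 and none was called (adjusted p = 0.29, 0.33, 0.18 and 0.33). None was called either with the RNA quality ratios as covariates, and without the 5 lowest in B lineage markers 1 of the 10 was.

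In some single tumours one D cyclin was high and another low. A tumour was described as opposed where one D cyclin lay at least 1 log2 unit above its median over the 50 lymphomas and another at least 1 log2 unit below, those medians being intensities of 3912 for Ccnd1, 586 for Ccnd2 and 2109 for Ccnd3. This held for 1 early and 6 late lymphomas, and Ccnd1 was the low one in all 7. At 2 log2 units it held for 0 early and 2 late lymphomas, numbers 120 and 138. Taking the median of the tumour's own group, or quantile normalization, gave the counts 1 and 6 again. The rule was applied to lymphomas only. Against the same lymphoma medians, normal tissues 2, 5, 7, 8 and 9 also had Ccnd1 lower and Ccnd2 higher by at least 1 log2 unit. The other normal tissues had Ccnd2 raised by at least 1 log2 unit too, with Ccnd1 lower by less than 1 log2 unit.

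Of the late tumours, 5 had low Ccnd1 with high Ccnd2. Number 129 had the highest Ccnd2 of the series, 11230.3, with Ccnd1 at 1287. Number 137 had Ccnd2 at 9444 and Ccnd1 at 1016. Number 120 had Ccnd2 at 7516 and Ccnd1 at 723. These 3 tumours kept Ccnd3 within 1 log2 unit of its median, at 2508, 2173 and 1613. Number 138 had Ccnd2 at 8729, Ccnd1 at 924 and the lowest Ccnd3 of the lymphomas, 773. Number 125 had Ccnd2 at 2352, Ccnd1 at 652 and Ccnd3 at 943. Its Ccnd2 lay below every normal tissue, the lowest of which stood at 3920.2. In all 5 tumours the 3 probe sets of Ccnd1 and the 7 of Ccnd2, the dim 1416123_at and 1416124_at included, deviated the same way by at least 1 log2 unit. These are the same tumours that had the highest plasma cell marker means, 13.1, 13.2, 13.4, 13.4 and 12.9 in the order given, and their B lineage means were 11.2, 10.3, 10.4, 9.27 and 9.57. The part of plasma cells in this pattern was not tested.

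In the other 2 opposed tumours the high cyclin was Ccnd3. Early lymphoma 24, with an onset at 74 days, had Ccnd3 at 7056 and Ccnd1 at 1006, with Ccnd2 at 585. Late lymphoma 136, with an onset at 468 days, had Ccnd3 at 6084 and the lowest Ccnd1 of the series, 263, with Ccnd2 at 771. The low Ccnd1 held by at least 1 log2 unit on 3 of 3 probe sets in both tumours. The high Ccnd3 passed 1 log2 unit on the brightest of its 3 probe sets only. The second stood at 0.86 above its median in number 24 and at 0.78 in number 136, and the third lay below its median, at -1.16 and -0.71. Their plasma cell means, 9.62 and 9.55, lay within the range of early lymphomas, and their B lineage means were 11.8 and 9.61. Their kinases differed, since Cdk6 stood at 1038 in number 24, the lowest of the early group, and at 5229 in number 136, the highest of all lymphomas. Ccne1 differed as well, at 3605 in number 24, the highest of all lymphomas, and at 633 in number 136.

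Low Ccnd1 did not always come with another D cyclin raised. Late lymphoma 114 had Ccnd1 at 602 with Ccnd2 at 630 and Ccnd3 at 2259, both near the medians, and Cdk6 at 3657. High Ccnd2 did not always come with low Ccnd1 either. Early lymphoma 6 had Ccnd2 at 7369 together with the highest Ccnd1 of its group, 4887, and of the 16 lymphomas with Ccnd2 raised by at least 1 log2 unit, 4 early and 12 late, 5 had Ccnd1 lowered as far. No lymphoma had Ccnd1 raised by 1 log2 unit.

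**Figure D3:**
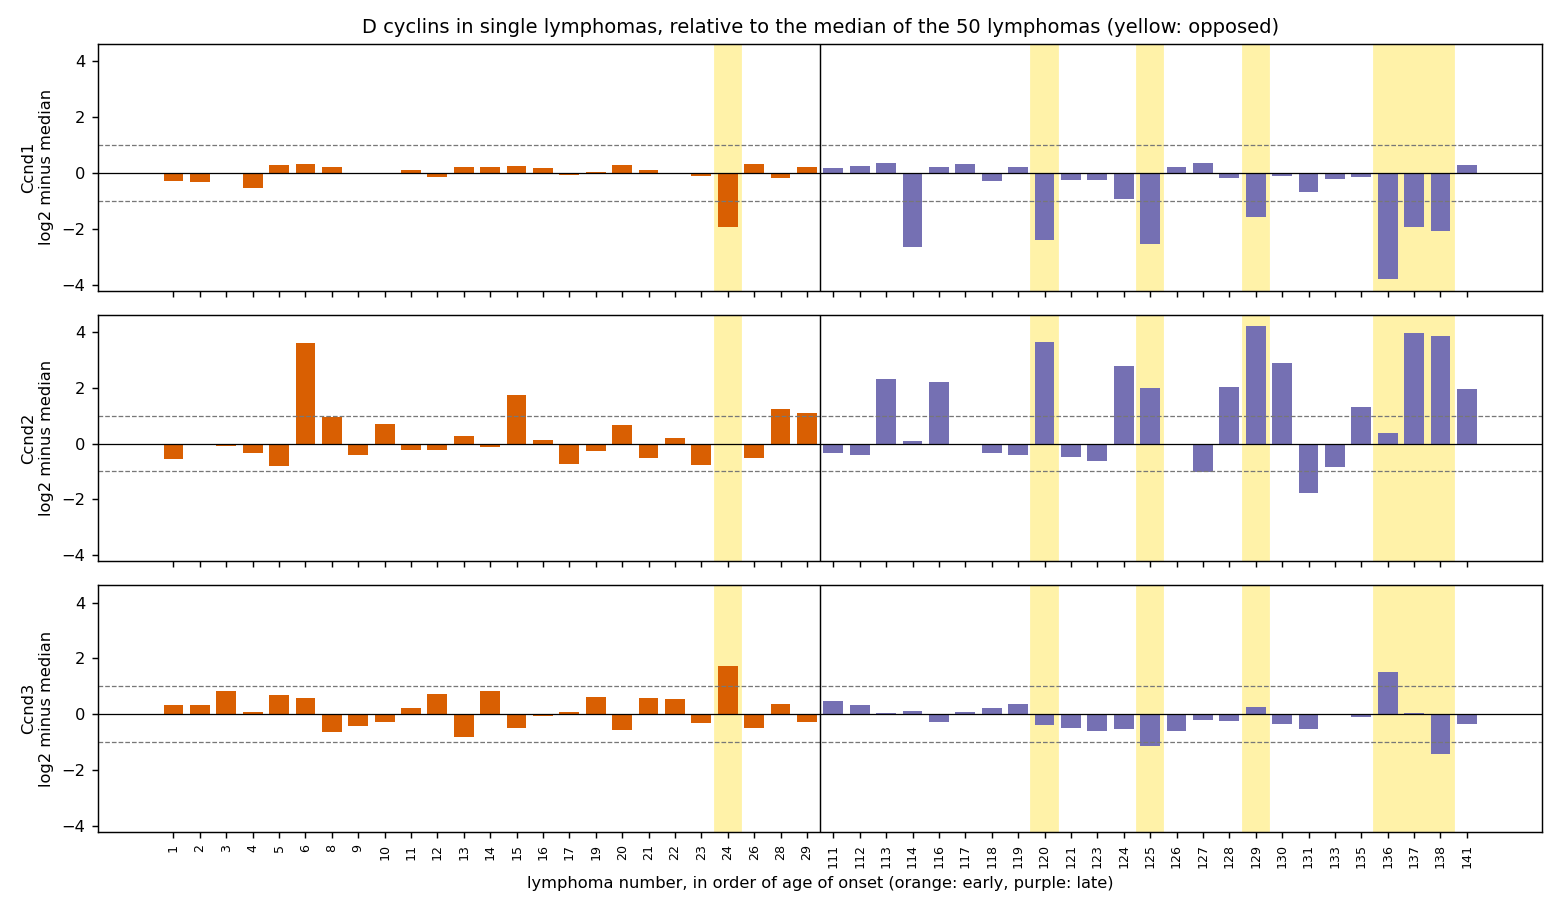
Bars give each lymphoma's log2 level of Ccnd1, Ccnd2 and Ccnd3 minus the median of the 50 lymphomas on the vertical axis, with lymphomas in order of age of onset on the horizontal axis, early in orange and late in purple. Dashed lines mark 1 log2 unit, and yellow bands mark the 1 early and 6 late lymphomas in which D cyclins were opposed.

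**Figure D4:**
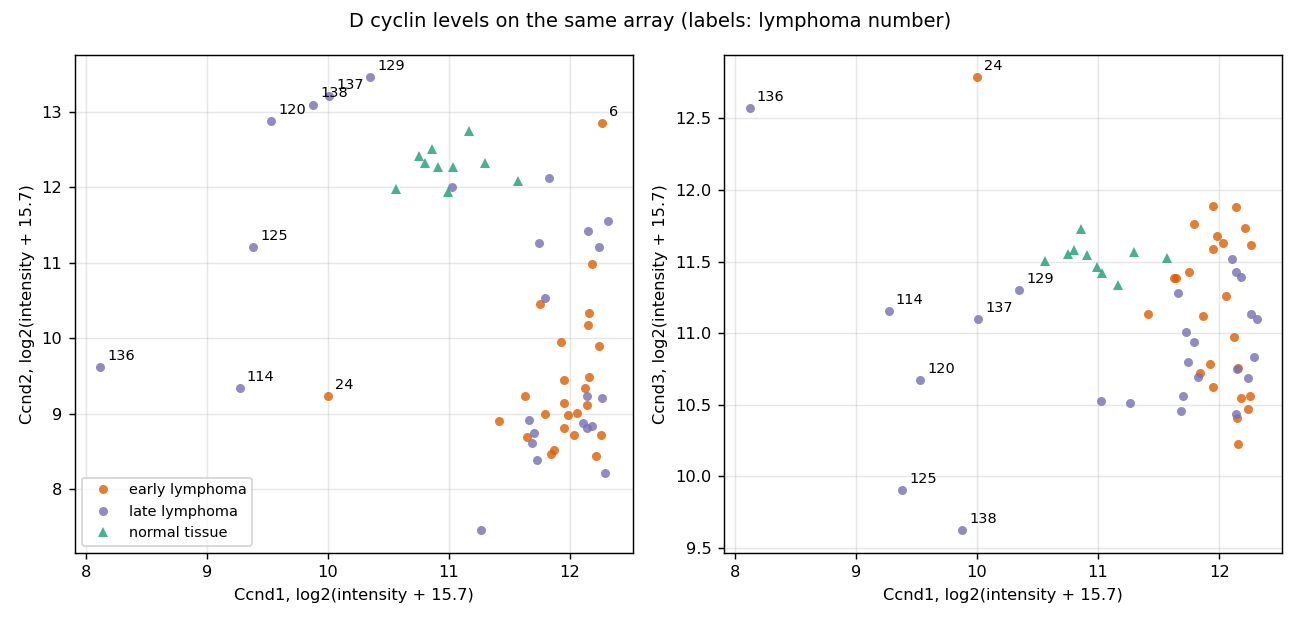
Each point is 1 array, with Ccnd1 on the horizontal axis and Ccnd2 (left) or Ccnd3 (right) on the vertical axis, all as log2(intensity + 15.7). Numbers 120, 125, 129, 137 and 138 lie at low Ccnd1 and high Ccnd2, and numbers 24 and 136 at low Ccnd1 and high Ccnd3 on its brightest probe set.

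Across tumours the relations between D cyclins depended on which few tumours were included. They were computed for 3 pairs in each lymphoma group, 6 relations in all, with permutation tests of 100000 resamples, two-sided, on 25 tumours each. In early lymphomas Ccnd1 and Ccnd3 had r = -0.58 (permutation p = 0.0043, adjusted p = 0.026) and Spearman's rho = -0.36 (permutation p = 0.081, adjusted p = 0.33). Without numbers 24 and 4, the farthest from the Ccnd1 median, r was -0.31 (permutation p = 0.15), so the relation rests on those samples. In late lymphomas Ccnd1 and Ccnd2 had r = -0.37 (permutation p = 0.071, adjusted p = 0.21) and rho = -0.30 (permutation p = 0.145, adjusted p = 0.33). Without numbers 136 and 114 r was -0.61 (permutation p = 0.002, adjusted p = 0.012). Without the 5 late lymphomas highest in plasma cell markers, a choice made after seeing the data, it was 0.05 (permutation p = 0.87, 20 tumours). The other 4 relations lay between -0.25 and 0.21 and had adjusted p-values of 0.35 to 0.66. Of these, Ccnd1 and Ccnd3 in late lymphomas changed from -0.09 to 0.48 (permutation p = 0.02, adjusted p = 0.059) without numbers 136 and 114.

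The genes whose level went most closely with a D cyclin over the 50 lymphomas, after the mean of each lymphoma group was subtracted, were taken from 12635 genes with 1 probe set each. These correlations are descriptions, and they include the tumours that stood apart in cell type markers. For Ccnd1 they were Taf1a (r = 0.77), Galnt12 (0.75), Mbd3 (0.71), Sf3b3 (0.71) and Emg1 (0.70). Taf1a was alike in both groups, 0.78 in early and 0.79 in late lymphomas, whereas Mbd3 stood at 0.24 in early and 0.78 in late ones. Early lymphoma 24 stood apart in Ccnd1, at 1006 against 2703 in the next lowest early lymphoma. Its part in the early values was not tested. For Ccnd2 they were Helz2 (0.76), Rgs5 (0.75), Gpm6a (0.74), Skil (0.74) and Selenok (0.74), each higher in late than in early lymphomas, as with Skil at 0.80 and 0.49. For Ccnd3 the closest genes were looser: Gpx1 (0.58), Pnp (0.55), Usb1 (0.54), Gpsm3 (0.54) and Lta4h (0.54).

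The other genes of the pathway, from lists of names, were mostly higher in lymphomas, to be read beside a median change over all probe sets of -0.119 in early and -0.089 in late lymphomas against normal tissue and of 0.001 between the lymphoma groups. Of all probe sets, 28.4% were called higher and 39.8% lower in early lymphomas against normal tissue, and 22.4% and 32.4% in late lymphomas. Of CDK2 and the genes that activate CDKs, 7 of 7 were higher in early lymphomas than in normal tissue (median 1.15) and 7 of 7 in late lymphomas (median 0.80), led in early lymphomas by Ccna2, the S phase partner of CDK2, at 2.64 ± 0.10 (adjusted p = 4.2e-23). Ccnh, the cyclin of the CDK-activating kinase, rose by 1.24 ± 0.10 and Cdk2 itself by 1.16 ± 0.08. In late against early lymphomas, where 9.58% of all probe sets were called higher and 12.4% lower, 0 were higher and 4 of 7 lower (median -0.26): Ccna2 at -0.41 ± 0.15, Cdk2 at -0.39 ± 0.13, Ccnh at -0.31 ± 0.09 and Cdc25a, the phosphatase that activates CDK2, at -0.25 ± 0.08 (the last chosen after its values were seen).

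Among the pocket proteins, E2F and DP genes, 11 of 12 were higher and 1 lower in early lymphomas (median 1.44), and 10 were higher and 1 lower in late ones (median 1.07). The one that fell in early lymphomas was Rbl2, the gene of p130, which is known to hold E2F genes silent in resting cells, at -1.10 ± 0.07 (adjusted p = 1.1e-17, named after its values were seen). The largest rises there were E2f8 at 2.63 ± 0.15, Tfdp1, a dimer partner of E2F proteins, at 2.26 ± 0.06, and E2f7 at 1.98 ± 0.13. In late against early lymphomas 0 of 12 were higher and 7 lower (median -0.40, beside 0.001 and 12.4% called lower over all probe sets), with E2f8 at -0.66 ± 0.17 (adjusted p = 0.0046), Tfdp2 at -0.61 ± 0.14 (adjusted p = 0.002) and E2f3 at -0.60 ± 0.12 (adjusted p = 0.00058).

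Next came the S phase genes that E2F controls. In early lymphomas 7 of 7 were higher than in normal tissue (median 1.92), including Cdc6, which loads the replicative helicase, at 2.91 ± 0.16, Tk1, a nucleotide salvage kinase, at 2.14 ± 0.15 and Mybl2, a transcription factor of cycling cells, at 1.92 ± 0.10. In late lymphomas 6 of 7 were higher (median 1.40). Between the groups 4 of 7 were lower in late lymphomas (median -0.44, against the same 12.4% of all probe sets), Mcm5 at -0.54 ± 0.14, Mybl2 at -0.52 ± 0.11 and Rrm2 at -0.50 ± 0.13 among them. Mitosis markers, 7 of 7, were lower in late lymphomas too (median -0.56), and their part was not tested.

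Of the genes that degrade p27 and the G1 cyclins, 6 of 9 were higher and 2 lower in early lymphomas (median 0.52), and the same numbers held in late lymphomas (median 0.47). Skp2 and Cks1b, the pair that marks p27 for destruction, rose in early lymphomas by 2.42 ± 0.14 (adjusted p = 1.4e-17) and 2.09 ± 0.08 (adjusted p = 6.8e-23), and Cdc34, a ubiquitin-conjugating enzyme of that ligase, by 1.10 ± 0.07. The 2 that fell were Fbxo4, an F-box protein, at -0.90 ± 0.12 and Rbx1, the RING subunit, at -0.54 ± 0.20, named after their values were seen. In late against early lymphomas, Skp2 was lower at -0.54 ± 0.19 (adjusted p = 0.036) and Cul1, the scaffold of that ligase, at -0.28 ± 0.09 (adjusted p = 0.021), while Fbxw7, the receptor that targets cyclin E, was higher at 0.41 ± 0.10 (adjusted p = 0.0028). Over all probe sets 9.58% were called higher and 12.4% lower in that comparison. The other CDK inhibitors showed no common direction. Of 4 measured, 2 were lower in early lymphomas (median -0.28), Cdkn1a, the gene of p21, at -0.65 ± 0.21 (adjusted p = 0.0064) and Cdkn2d, the gene of p19, at -0.42 ± 0.16 (adjusted p = 0.016). Cdkn2a stood at 0.91 ± 0.45 (adjusted p = 0.071). In late lymphomas 1 of the 4 was higher than in normal tissue and 0 were lower (median -0.33). Over all probe sets the shares were 28.4% higher and 39.8% lower in early and 22.4% and 32.4% in late lymphomas. None of the 4 was called between the lymphoma groups, with Cdkn2a at 0.56 ± 0.44, Cdkn1a at 0.42 ± 0.26 and Cdkn1c at -0.33 ± 0.27.

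**Figure D5:**
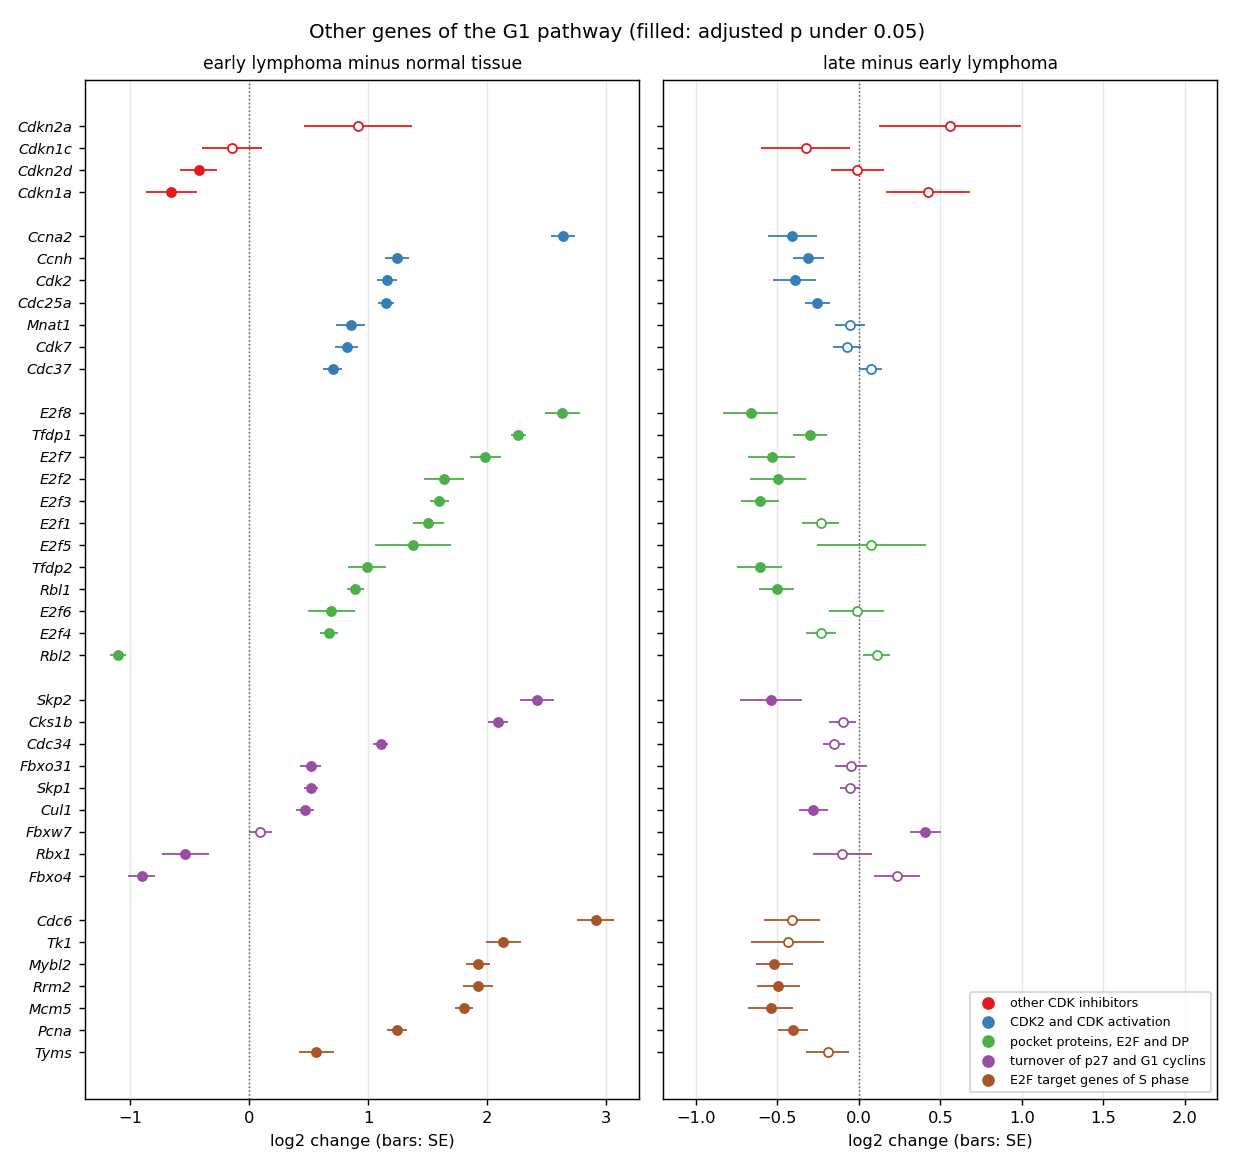
Log2 change with its standard error on the horizontal axis for the other genes of the pathway, grouped by list in colour, in early lymphoma minus normal tissue (left) and late minus early lymphoma (right). Filled points passed an adjusted p of 0.05. Most genes lie to the right against normal tissue, up to 2.91 for Cdc6, and Rbl2 lies at -1.10.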

How the data were processed

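The labels' protocols describe total RNA of 60 tissues on 1 array each. The authors deposited linear intensities, and the submitters' processing notes name MAS5, with version and detection calls not given in the sources used here. With 2% of probe sets trimmed at either end, every array had a mean of 499.84 to 499.89, so the arrays had been scaled to a common level. Groups came from the labels' genotype and age. The labels' description text speaks of fly embryos and was not used.

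Here log2(intensity + 15.7) was computed, the pseudocount being the table median divided by 10, which understates changes of dim genes. Probe sets above their array's median on at least 10 of 60 arrays were kept, without 64 control probe sets. Comparisons used limma 3.58.1 (R 4.3.3, lmFit, eBayes with trend, two-sided, only the groups compared), tested on simulated data. A gene is its probe set of highest mean among those naming it alone in the platform annotation. Named are the 10 members, in each pathway list the 3 largest changes in late minus early and in early minus normal, and the 5 genes most alike each D cyclin. The RNA quality ratios are log2 ratios of control probe sets at the 3′ end over those at the 5′ end of Gapdh and beta-actin. Members, lists and alternatives were chosen with earlier results of these data known. Promoter sequences are RefSeq's for GRCm38.p6. Python 3.11.15, numpy 2.4.6, pandas 2.3.3, scipy 1.17.1 and matplotlib 3.10.9 were used. The number of arrays limits the precision. Listed genes without a kept probe set of their own are not reported here.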

Additional observations from a re-analysis of the deposited data

How the results depend on the processing

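Over the alternatives, 586 of the member changes counted kept their direction and side of the threshold, 45 lost a call, 12 gained one and 17 turned in sign. For the slopes on age, and for the onset difference minus the normal age difference, only Rb1 was counted. Slopes that other members gained after centring are therefore not among these numbers. The 586 include Ccne2 and Cdkn2c in the setting of the second probe set. With 1 probe set each, they kept it there and could not change. In late minus early lymphoma, 2 members were called lower; the count was 1 without the filter, on the second probe set and without the 5 late lymphomas lowest in B lineage markers, and 0 with the RNA quality ratios as covariates and without the 5 highest in plasma cell markers. The count called higher there, 0, became 1 without early lymphomas 6 and 24, a choice made after seeing the data. The 4 members with more scatter in late lymphomas became 0 with the RNA ratios, 0 without the plasma-high tumours and 1 without the B-low tumours. The single member higher in old normal tissue became 0 with the RNA ratios and 0 on the second probe set, since that of Rb1 did not pass the filter, and stayed 1 without each old tissue in turn. Against old normal tissue alone, 1 member in place of 3 was lower in late lymphomas. Centring gave 5 members a rising slope on age within early lymphomas. Opposed D cyclins at 2 log2 units gave 0 early and 2 late lymphomas.

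The relation of Ccnd1 and Ccnd3 in early lymphomas was -0.47 on the second probe sets (permutation, adjusted p = 0.084) and in late lymphomas it turned to 0.26. That of Ccnd1 and Ccnd2 in late lymphomas turned to 0.047 without the plasma-high tumours. Centring turned Ccnd3 (0.031) and Rb1 (0.014) in early lymphoma minus normal tissue, Rb1 (0.11) in late lymphoma minus normal tissue, Cdkn2c (-0.046) in late minus early lymphoma and the scatter of Cdkn2c (0.056). The second probe set turned the scatter of Ccnd3 (0.10). Leaving out late lymphoma 123, a choice made after seeing the data, turned Cdkn2c in late minus early lymphoma (-0.0075). In old minus young normal tissue, none of these being called, Ccnd3 turned with quantile normalization (-0.0086) and on the second probe set (-0.24), and the RNA ratios turned Ccnd1 (0.10), Ccnd2 (-0.18) and Ccne1 (-0.040). Leaving out each old tissue in turn gave -0.30 to 0.34 for Ccne2, -0.019 to 0.075 for Cdkn2c, -0.052 to 0.079 for Ccnd3 and -0.18 to 0.0071 for Cdk6. The causes of these turns were not tested.

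Early lymphomas and normal tissues share 9 title numbers. Same-numbered arrays deviated together at -0.14 to 0.11 and 1 of 9 early lymphomas correlated best with its own number, so the numbers do not pair the samples. With the replicate block on these numbers 5 members were higher and 3 lower, Cdkn2c being 0.30 (adjusted p = 0.18), and 16252 probe sets were called against 16552 in the same samples without it.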
